A study of Mus musculus with 4 samples.

Results

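The fragile X protein family consists of Fmr1, Fxr1 and Fxr2, and the Cyfip genes are Cyfip1 and Cyfip2, whose proteins bind the Fmr1 product. These 5 genes, chosen by name out of 21951 protein-coding genes, were examined for N6-methyladenosine (m6A) peaks lying over their exons in GENCODE M21 on mouse genome build mm10. Every peak of either replicate that covered at least 1 exonic base was kept. This gave 18 peaks of 38533 in replicate 1 and 13 of 30134 in replicate 2.

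The peaks came from m6A-seq of whole brain from C57BL/6J mice aged 4 weeks, in which RNA fragments bound by an m6A antibody are sequenced beside unselected input RNA. The 4 samples were 2 biological replicates of m6A immunoprecipitation (IP) and 2 of input. The series text describes the mice as Prrc2a flox/flox and names no Cre, while the labels of the samples give the strain without a genotype. No second condition was part of the experiment. A peak was given a start, an end and an Enrichment, the linear ratio of IP over input from the peak caller. Neither strand, read counts nor p-values were part of the lists, so the depth behind each value is unknown. Of 6 brain genes, 5 had an exonic peak in both replicates, Aldoc being the exception with 1 peak in replicate 2. Of 4 genes of other tissues, Alb, Acta1 and Ins2 had no peak, whereas the heart gene Myh6 had 1 peak found in both replicates.

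FMRP, the product of Fmr1, is an RNA-binding protein that represses translation of many neuronal mRNAs, and silencing of its gene causes fragile X syndrome. FXR1P and FXR2P are its autosomal paralogs and share its KH domains and its arginine-glycine-rich (RGG) region. Cyfip1 and Cyfip2 are subunits of the WAVE regulatory complex, through which Rac signaling drives actin branching, and Cyfip1 also joins FMRP to the cap-binding protein eIF4E. m6A is laid down on mRNA by the Mettl3-Mettl14 complex, often within GGAC, and is known to concentrate around stop codons and in long exons.

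The coding exons below are part of the comparison between the paralogs. Each is the coding part of the exon on the strand of its gene, read 5′ to 3′ from the mm10 sequence, with each GGAC in capitals. The first group holds exons of the fragile X family chosen from those under peaks found in both replicates, together with exon 10 of Fxr1, the same exon without a peak.
Fmr1 exon 10, chrX:68703663-68703772, plus strand: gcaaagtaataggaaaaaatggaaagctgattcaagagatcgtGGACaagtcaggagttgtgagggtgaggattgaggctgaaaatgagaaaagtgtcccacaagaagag
Fxr1 exon 10, chr3:34054222-34054331, plus strand: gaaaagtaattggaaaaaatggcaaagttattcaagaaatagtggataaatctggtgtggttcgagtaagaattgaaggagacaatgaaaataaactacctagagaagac
Fxr2 exon 10, chr11:69649728-69649837, plus strand: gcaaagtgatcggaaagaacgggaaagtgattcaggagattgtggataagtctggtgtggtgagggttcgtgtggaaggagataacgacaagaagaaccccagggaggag
Fmr1 exon 15, chrX:68712231-68712413, plus strand: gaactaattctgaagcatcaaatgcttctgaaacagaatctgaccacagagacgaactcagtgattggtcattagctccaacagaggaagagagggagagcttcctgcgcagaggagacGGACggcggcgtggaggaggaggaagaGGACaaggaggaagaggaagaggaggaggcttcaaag
Fxr1 exon 14, chr3:34064119-34064319, plus strand: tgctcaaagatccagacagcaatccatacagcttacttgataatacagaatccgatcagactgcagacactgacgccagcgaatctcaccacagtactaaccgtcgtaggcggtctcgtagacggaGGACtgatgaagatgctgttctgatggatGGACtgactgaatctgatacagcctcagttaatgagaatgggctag
Fxr2 exon 14, chr11:69651523-69651723, plus strand: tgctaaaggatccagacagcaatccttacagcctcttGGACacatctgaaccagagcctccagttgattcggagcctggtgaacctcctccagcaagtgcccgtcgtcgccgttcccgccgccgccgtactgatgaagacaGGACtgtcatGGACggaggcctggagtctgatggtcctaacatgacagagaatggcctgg

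The second group holds the first and the last coding exons of the Cyfip genes. The coding part of exon 2 starts with the start codon, and this exon lay under a peak in both genes. The coding part of exon 31 ends with the stop codon, and that exon lay under a peak in Cyfip2 only.
Cyfip1 exon 2, chr7:55871860-55871976, plus strand: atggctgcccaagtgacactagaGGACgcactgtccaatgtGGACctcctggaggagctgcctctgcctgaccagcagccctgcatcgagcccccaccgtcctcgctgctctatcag
Cyfip2 exon 2, chr11:46291513-46291629, minus strand: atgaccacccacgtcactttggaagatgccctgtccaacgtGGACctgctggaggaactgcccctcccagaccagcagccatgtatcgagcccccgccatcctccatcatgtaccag
Cyfip1 exon 31, chr7:55929998-55930162, plus strand: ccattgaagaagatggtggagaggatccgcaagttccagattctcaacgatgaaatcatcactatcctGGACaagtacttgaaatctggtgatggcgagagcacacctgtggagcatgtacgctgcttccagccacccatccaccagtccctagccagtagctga
Cyfip2 exon 31, chr11:46196300-46196467, minus strand: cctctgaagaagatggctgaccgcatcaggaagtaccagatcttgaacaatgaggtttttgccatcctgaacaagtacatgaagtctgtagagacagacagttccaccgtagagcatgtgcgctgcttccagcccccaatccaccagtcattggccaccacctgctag

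All 5 of 5 genes had at least 1 peak in both replicates. Among all protein-coding genes, 45.5% had such a peak over their exons. Peaks of the 2 replicates with 1 bp or more in common are termed shared, and their common bases form the shared interval. Of the 18 exonic peaks of replicate 1, 10 were shared (55.6%, 95% Wilson interval 33.7 to 75.4). The corresponding share over all exonic peaks of protein-coding genes was 67.8%, which lies inside this interval. Of the 13 exonic peaks of replicate 2, 10 were shared (76.9%, 95% Wilson interval 49.7 to 91.8), against 76.8% over all genes. Both intervals thus held the value over all genes. They cover counting error only.

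The 10 shared intervals were spread unevenly. Fmr1 and Fxr2 had 3 each, Cyfip2 had 2, and Fxr1 and Cyfip1 had 1 each. The median of the 9987 genes with a shared peak was 2, so the family spanned the typical range: 17.2% of these genes had more than 3 shared intervals and 40.7% had 1. Relative to mRNA length, Fxr2 carried 1.02 shared intervals per kb and Fmr1 0.714. Fxr1 followed with 0.407, Cyfip2 with 0.30 and Cyfip1 with 0.155 per kb. The Cyfip mRNAs are the longest of the group, 6440 nt for Cyfip1 and 6659 nt for Cyfip2, and held few peaks over most of that length. When only peaks with an Enrichment of at least 2 were kept, 3 shared intervals were counted, 1 each in Fmr1, Fxr2 and Cyfip2, and none in Fxr1 or Cyfip1.

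**Figure D1:**
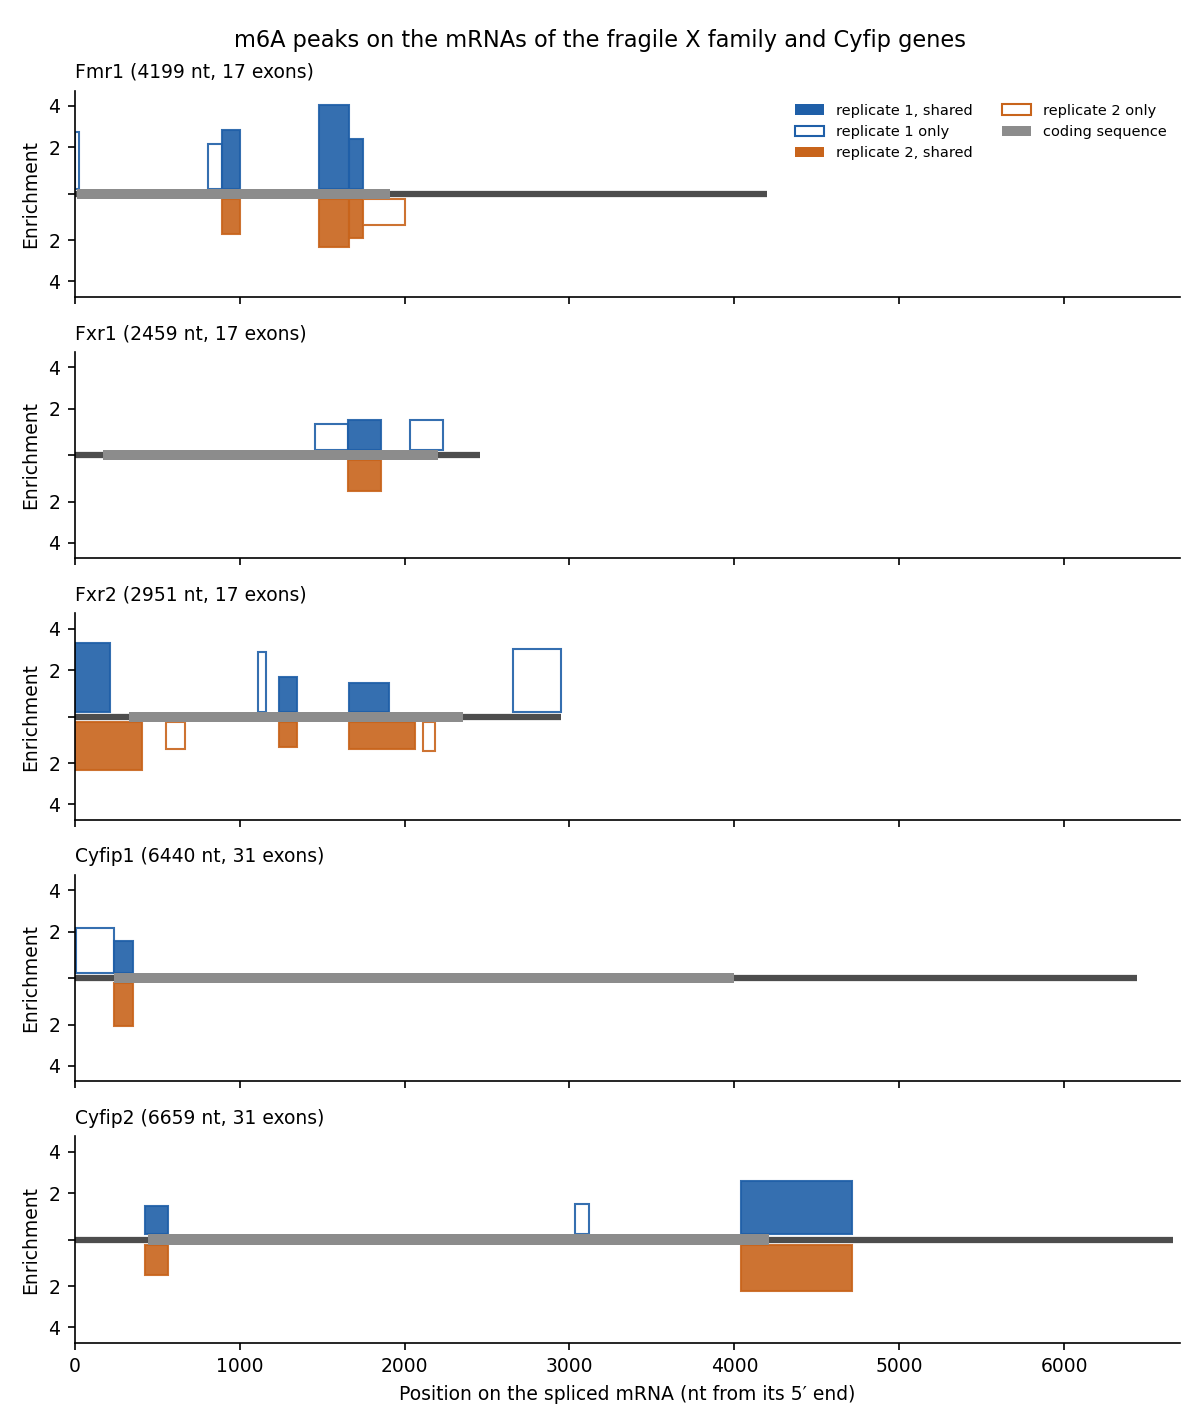
Peaks on the spliced mRNA of each gene, with position from the 5′ end in nt on the horizontal axis and bars whose height is the Enrichment (ratio of IP over input), replicate 1 upward in blue and replicate 2 downward in orange. Filled bars are shared peaks, open bars are peaks of 1 replicate, and the light band is the coding sequence: 9 of the 10 shared intervals reach into it, and the 3′ UTRs are empty except near the stop codons and at the end of Fxr2.

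Most shared intervals reached into coding sequence. The corresponding share over all genes was not computed, so the counts describe these intervals only. Of the 10, 6 lay over coding sequence only, 2 spanned a start codon, 1 spanned a stop codon and 1 lay in a 5′ UTR, so that 9 contained coding bases. The median interval was 319.5 nt long. Each gene is represented by its transcript with the longest coding sequence. On that transcript, a median of 43.7% of the bases of an interval were intronic or outside the gene. Some of these bases are exonic in other transcripts. The replicate 2 peak over Fxr2 exon 10 had 110 exonic bases on the representative transcript and 203 over any transcript. Peaks had been called along the genome, where internal exons of the representative transcripts are at most 239 nt long.

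Fmr1 (ENSMUSG00000000838.17, chrX:68678541-68717963, plus strand) has 17 exons in the representative transcript, an mRNA of 4199 nt with a 5′ UTR of 15 nt and a 3′ UTR of 2288 nt. Its shared peaks fell at the middle and toward the end of the coding sequence. The strongest shared peak covered exon 15, with an Enrichment of 4.04 in replicate 1 (chrX:68712166-68712552) and 2.33 in replicate 2 (chrX:68712203-68712543). Exon 15 encodes codons 490 to 551, including the RGG box of FMRP, and FMRP is known to bind its own mRNA in this stretch. The peak over exon 10, which encodes codons 294 to 330 within the second KH domain, had an Enrichment of 2.85 in replicate 1 and 1.68 in replicate 2. The shared peak over exon 16 reached 2.41 in replicate 1 and 1.88 in replicate 2. In all 3 places the replicate 1 value was the higher.

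Exons 15 and 16 follow each other on the mRNA, and their shared intervals covered positions 1484 to 1666 and 1667 to 1749 without a gap, although an intron parts them on the chromosome. In replicate 2 a further peak with an Enrichment of 1.28 (chrX:68715497-68715764) went on from position 1750 to position 2000, across the stop codon and into the 3′ UTR. In replicate 1 a peak over exons 8 and 9 with an Enrichment of 2.17 (chrX:68700221-68700569) led up to exon 10. A peak at the 5′ end of the gene was found in replicate 1 alone, with an Enrichment of 2.73 (chrX:68678594-68678825). Only 24 of its 232 bases lay in the representative transcript, but all 232 were exonic in other Fmr1 transcripts. It also overlapped the annotated small RNA Gm27838 on the same strand. The remaining 3′ UTR of Fmr1 held no peak in either replicate.

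Fxr1 (ENSMUSG00000027680.15, chr3:34019943-34070322, plus strand) had weaker peaks, all toward the end of the coding sequence. Its only shared peak covered exon 14, with an Enrichment of 1.47 in replicate 1 (chr3:34064120-34064385) and 1.47 in replicate 2 (chr3:34064120-34064362). Both remaining peaks were found in replicate 1 only. One lay over exon 13, next to exon 14 on the mRNA, with an Enrichment of 1.25 (chr3:34061832-34062093). The other, with 1.45, lay across the stop codon in exon 17 (chr3:34068917-34069116).

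Fxr2 (ENSMUSG00000018765.5, chr11:69632990-69653297, plus strand) differed from its paralogs by a peak at the 5′ end of the gene in both replicates. The Enrichment there was 3.31 in replicate 1 (chr11:69632866-69633203) and 2.34 in replicate 2 (chr11:69632914-69633398), and the replicate 2 peak extended over the start codon. The replicate 1 peak began 124 nt before the annotated gene, and the bases common to both had a GC content of 82.4%. The 2 other shared peaks of Fxr2 were weak. Exon 10 had 1.66 in replicate 1 and 1.22 in replicate 2. Exons 13 and 14 lay under a single peak of 1.40 in replicate 1 and 1.31 in replicate 2.

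The other 4 peaks of Fxr2 appeared in 1 replicate each. Replicate 1 had a peak of 2.87 over exon 8 (chr11:69648928-69649128) and one of 3.04 in the 3′ UTR that ran 40 nt past the annotated end of the gene (chr11:69653002-69653337). Replicate 2 had a peak of 1.32 over exons 4 and 5 and one of 1.42 over exons 15 and 16. An Enrichment as high as that of the 3′ UTR peak did not ensure a counterpart: it exceeded 8 of the 10 shared peaks of its own replicate.

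Cyfip1 (ENSMUSG00000030447.15, chr7:55841745-55932602, plus strand) carried peaks only at the start of its mRNA. The shared peak had the same coordinates in both replicates (chr7:55871777-55871976), the shortest length a peak had in the lists, 200 nt. It covered all of exon 2 with the start codon, and its Enrichment was 1.53 in replicate 1 and 2.05 in replicate 2. It was 1 of 2 shared places in the 5 genes at which replicate 2 had the higher value. A peak of 2.17 over the 5′ UTR in exon 1 was found in replicate 1 only (chr7:55842077-55842468). The other exons, the stop codon and a 3′ UTR of 2440 nt held none.

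Cyfip2 (ENSMUSG00000020340.16, chr11:46193850-46312859, minus strand) had shared peaks at both ends of the coding sequence. The stop codon peak in exon 31 was the wider and the stronger, with an Enrichment of 2.59 in replicate 1 (chr11:46195794-46196510) and 2.22 in replicate 2 (chr11:46195794-46196467). Its shared interval of 674 nt lay wholly in the exon, from position 4042 to 4715 of the mRNA, with its middle 170 nt past the stop codon. The start codon peak in exon 2 had 1.36 in replicate 1 (chr11:46291394-46291712) and 1.45 in replicate 2 (chr11:46291401-46291712). Replicate 1 alone had a peak of 1.46 over exon 23 (chr11:46239865-46240216), whose edge overlapped the end of Fndc9 on the opposite strand. The lists give no strand, so the transcript of origin cannot be told apart there.

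**Figure D2:**
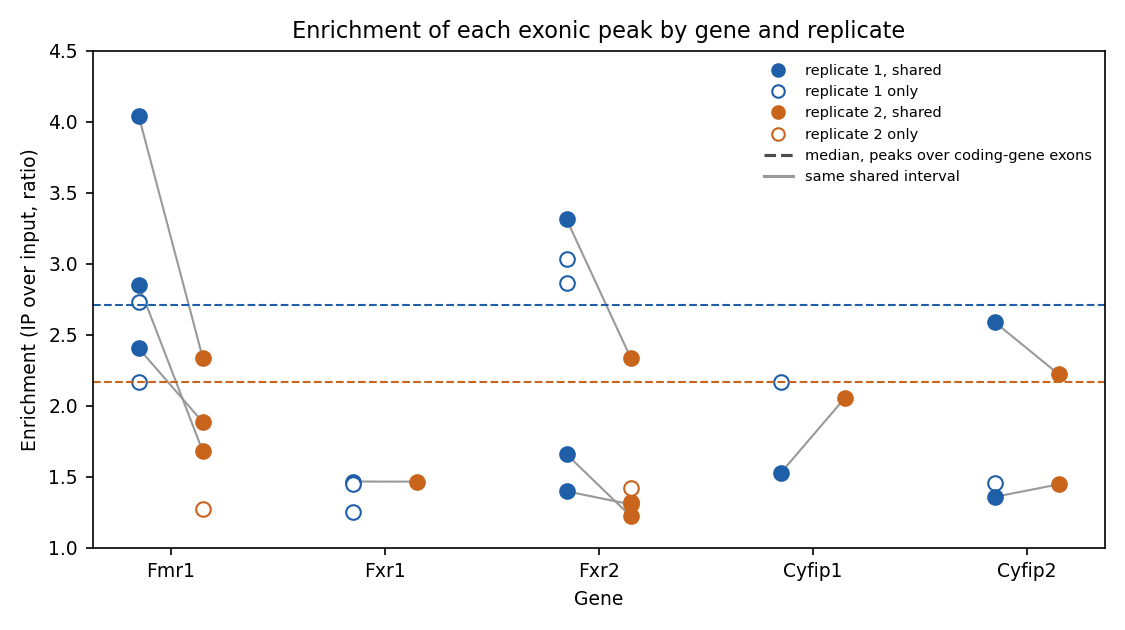
Enrichment (ratio of IP over input, vertical axis) of every exonic peak of the 5 genes, replicate 1 in blue and replicate 2 in orange, filled where shared, with grey lines joining the values of 1 shared interval. Dashed lines mark the median of all peaks over exons of protein-coding genes, 2.71 in replicate 1 and 2.17 in replicate 2, and 8 of the 10 joined pairs fall from replicate 1 to replicate 2.

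The replicates differed in scale, and the 5 genes shared this. Over 20994 matched peak pairs in exons of protein-coding genes, the log2 Enrichment was higher in replicate 1 by a median of 0.37 (SD 0.47), and 78.3% of the pairs were higher in replicate 1. Of the 10 shared intervals here, 8 were higher in replicate 1. For this reason Enrichment was compared between genes within a replicate. Shared peaks of replicate 1 had a median Enrichment of 2.03 (1.36 to 4.04, n = 10), and those found in replicate 1 only had a median of 2.17 (1.25 to 3.04, n = 8). In replicate 2 the shared peaks had a median of 1.78 (1.22 to 2.34, n = 10), and the 3 others lay between 1.28 and 1.42. The ranges of shared and unshared peaks overlapped in both replicates.

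The strongest shared peak of each gene gave the order Fmr1, Fxr2, Cyfip2, Cyfip1 and Fxr1 by mean log2 Enrichment. The means were 1.62 ± 0.56 for Fmr1 and 1.48 ± 0.36 for Fxr2 (SD, n = 2). Those of the lower genes were 1.26 ± 0.16 for Cyfip2, 0.82 ± 0.30 for Cyfip1 and 0.55 ± 0.00063 for Fxr1 (SD, n = 2). These SDs include the difference in scale between the replicates. With 2 values each, a small SD is no measure of precision. Within replicate 1 the order was the same, while in replicate 2 Fmr1 and Fxr2 were level at 2.33 and 2.34. Cyfip2, at 2.59 and 2.22, lay below both of them in each replicate, by little in replicate 2. Cyfip1 lay below Cyfip2 in each replicate, and Fxr1 lay below Cyfip1, by little in replicate 1, at 1.47 against 1.53. An unpaired two-sided exact permutation test of 2 against 2 values cannot go below p = 0.333. No test between genes was run, and the values are given as a description. In whole brain, a low Enrichment from fewer cells with methylated RNA and one from less methylated RNA per cell cannot be told apart.

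**Figure D3:**
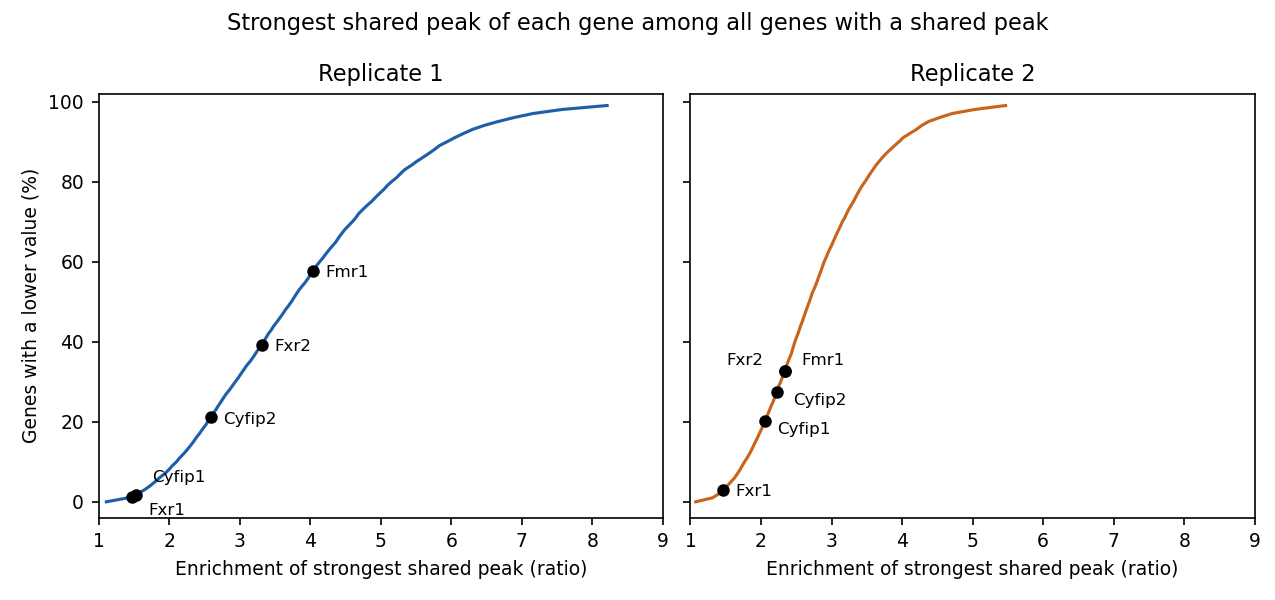
Percent of the 9987 protein-coding genes with a shared peak whose strongest shared peak is weaker (vertical axis) against its Enrichment (ratio, horizontal axis), with the curve over all these genes and a point for each of the 5 genes, replicate 1 left and replicate 2 right. Fxr1 sits at the bottom in both panels, and only Fmr1 in replicate 1 lies in the upper part of the curve, at 57.7%.

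Against the other genes with a shared peak, the 5 genes ranked low to middling. The median strongest shared peak had an Enrichment of 3.73 in replicate 1 and 2.69 in replicate 2. Fmr1 exceeded 57.7% of genes in replicate 1 and 32.6% in replicate 2, and Fxr2 exceeded 39.3% and 32.7%. Cyfip2 exceeded 21.1% of genes in replicate 1 and 27.4% in replicate 2. Cyfip1 exceeded 1.77% of genes in replicate 1 and 20.1% in replicate 2, a shift opposite to that of Fmr1. Fxr1 stayed near the floor with 1.32% and 3.03%.

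The paralogs were then compared place by place on alignments of their translated coding sequences. Cyfip1 and Cyfip2 are the closest pair, with 87.4% identical residues over 1252 aligned codons. Fxr1 and Fxr2 had 69.1% identical residues, Fmr1 and Fxr1 66.7%, and Fmr1 and Fxr2 61.1%. Peak numbers did not follow this order. The closest pair differed by 1 shared peak, and the most distant pair, Fmr1 and Fxr2, had 3 shared peaks each.

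**Figure D4:**
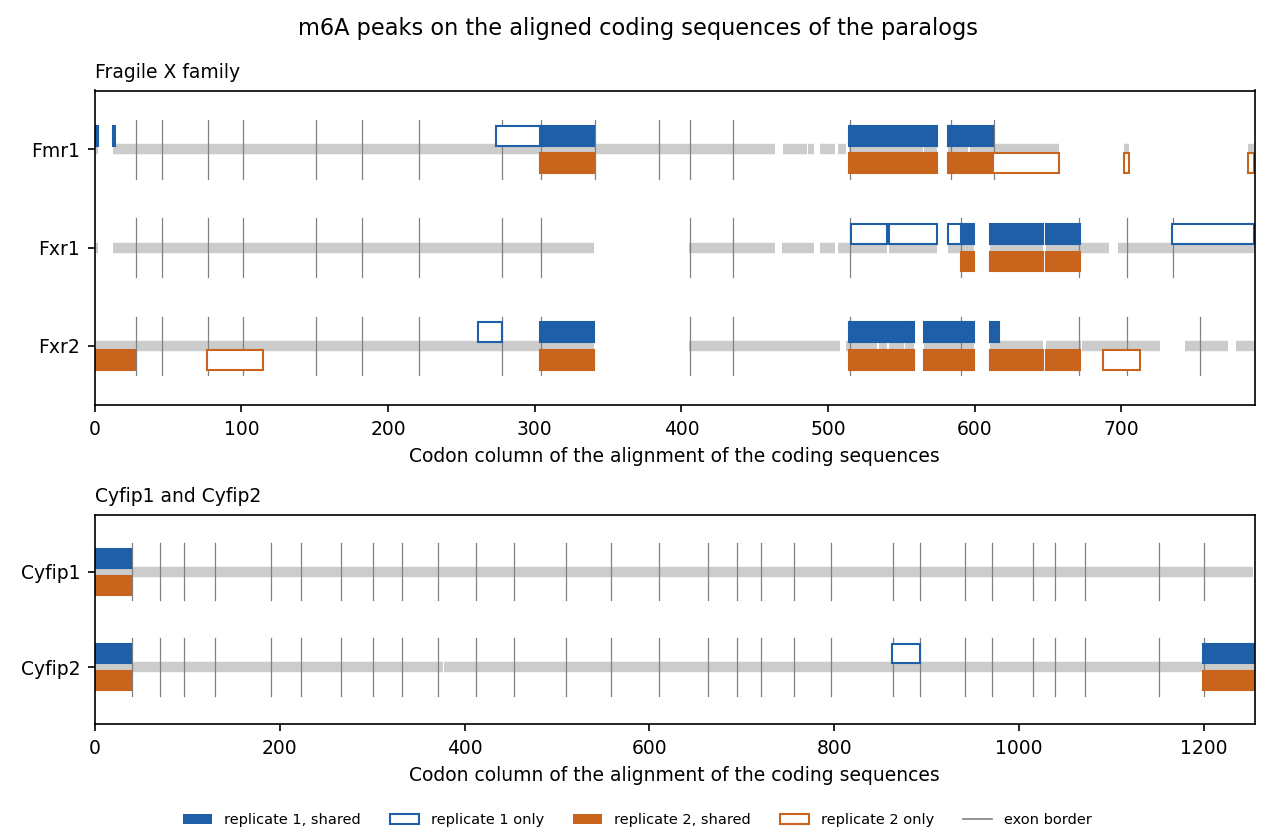
Peaks on the aligned coding sequences, with the codon column of the alignment on the horizontal axis, one row per gene, replicate 1 above and replicate 2 below the line, filled where shared and open where found in 1 replicate. Vertical lines are exon borders and breaks in the grey band are alignment gaps: exon 10 of Fmr1 and Fxr2 and exon 2 of both Cyfip genes are covered in both replicates at the same columns.

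Peaks of Fmr1 and Fxr2 overlapped at many aligned codons. The shares that follow count all exonic peaks, shared or found in 1 replicate, and leave out UTR bases. No share expected from the extent of the peaks was computed. Among aligned codons, 139 of Fmr1 and 126 of Fxr2 lay under peaks in replicate 1, and 110 were common to both, 79.1% of those in Fmr1 and 87.3% of those in Fxr2. In replicate 2 the numbers were 157 and 208, with 153 common, 97.5% and 73.6%. Fxr1 had fewer matching codons with Fmr1 in either list: 76 were common in replicate 1, 51.7% of those in Fmr1 and 61.8% of those in Fxr1. In replicate 2, 53 were common, 32.1% of those in Fmr1 and 100% of those in Fxr1. Between Fxr1 and Fxr2, 73 codons were common in replicate 1 (43.7% and 57.5%) and 68 in replicate 2 (100% and 28.6%). No test was made of these shares, since codons under 1 peak are not independent.

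Exon 10 differed between the genes by the presence of a peak. It has 110 nt in all 3 genes and lay under a shared peak in Fmr1 and in Fxr2, whereas Fxr1 had no peak there in either replicate. The Fxr2 peak was stronger than only 8.89% of the peaks of replicate 1 and 1.04% of those of replicate 2. Its presence in Fxr2 against its absence in Fxr1 thus rests on calls near the low end of the lists. Of its aligned bases, 71.2% were identical between Fmr1 and Fxr2, 70.9% between Fmr1 and Fxr1 and 71.8% between Fxr1 and Fxr2. The exon with no peak was thus about as similar to each of the others as they were to each other. In the sequences printed above, exon 10 of Fmr1 holds 1 GGAC, and those of Fxr1 and Fxr2 hold none. The log2 Enrichment of exon 10 was higher in Fmr1 than in Fxr2 by 0.78 in replicate 1 and 0.46 in replicate 2 (mean 0.62 ± 0.23, SD, n = 2). Exon 8, upstream of it, lay partly under a peak of replicate 1 in Fmr1 (2.17) and in Fxr2 (2.87) and under none in Fxr1.

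Exon 15 of Fmr1 aligned over 60 codons with exon 13 of Fxr1 and over 52 codons with exon 13 of Fxr2. All 3 exons lay under a peak in replicate 1, at 4.04 in Fmr1, 1.25 in Fxr1 and 1.40 in Fxr2. In replicate 2 the peak of Fmr1 had 2.33 and that of Fxr2 1.31, while Fxr1 had none. The log2 difference between Fmr1 and Fxr2 at this place was 1.53 in replicate 1 and 0.84 in replicate 2 (mean 1.18 ± 0.49, SD, n = 2). Fmr1 was higher in both replicates.

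Exon 14 of Fxr1 and exon 14 of Fxr2, both of 201 nt and 63.7% identical, lay under shared peaks in both genes. Fxr1 had 1.47 in each replicate and Fxr2 had 1.40 and 1.31, from peaks that also took in exon 13. The Fxr2 peak of replicate 1 covered only the start of exon 14. Over the strongest shared peaks, Fmr1 exceeded Fxr1 by a log2 difference of 1.46 in replicate 1 and 0.67 in replicate 2 (mean 1.07 ± 0.56, SD, n = 2). Fxr2 exceeded Fxr1 by 1.17 and 0.67 (mean 0.92 ± 0.36, SD, n = 2). Fxr1 was the lowest of the 3 in both replicates by this measure. With the median over a gene's shared peaks in place of the strongest, the mean difference between Fxr2 and Fxr1 was 0.0052, so that order rests on the 5′ peak of Fxr2. The difference between Fmr1 and Fxr2 was 0.29 in replicate 1 and -0.00096 in replicate 2 (mean 0.14 ± 0.20, SD, n = 2), smaller than its SD and close to 0 in replicate 2. With medians over shared peaks it was larger, 0.66 ± 0.18 (SD, n = 2).

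The Cyfip genes had 1 place in common and 1 that set them apart. Exon 2 holds 117 coding bases in each, 76.9% of them identical, and lay under a start codon peak in both genes and both replicates. There Cyfip1 was higher by a log2 difference of 0.17 in replicate 1 and 0.51 in replicate 2 (mean 0.34 ± 0.24, SD, n = 2). Exon 31 holds 165 coding bases in Cyfip1 and 168 in Cyfip2, with 70.2% identical bases, and only Cyfip2 had a peak there, in both replicates. In replicate 1, 39 aligned codons of Cyfip1 and 123 of Cyfip2 lay under peaks, and in replicate 2, 39 and 93. All 39 were common to both genes, the codons of exon 2. By the strongest shared peak, Cyfip2 exceeded Cyfip1 by 0.76 in replicate 1 and 0.11 in replicate 2 (mean 0.44 ± 0.46, SD, n = 2), a difference smaller than its SD that sets a stop codon peak against a start codon peak. With medians over shared peaks the mean difference was 0.05.

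The letters under the peaks were searched for GGACT, a common form of the m6A consensus, and for GGAC, which every GGACT contains, on the strand of the gene. Of the 10 shared intervals, 1 held GGACT and 8 held GGAC. Among 17964 shared intervals of similar length, 200 to 674 nt, over exons of 1 coding gene, 39.2% held GGACT and 80.5% held GGAC. The one interval with GGACT was exon 14 of Fxr1, which holds both copies of its mRNA, and it was also the weakest of the 5 genes' strongest peaks. The strongest peak, over Fmr1 exon 15, held GGAC without GGACT.

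The 5 mRNAs hold 21 copies of GGACT, of which 2 lay in peaks of both replicates, 3 in peaks of replicate 2 only and 16 in none. The share of copies under peaks over all mRNAs was not computed, so these counts are a description. The 2 in both were those of Fxr1 exon 14, and the 3 were in Fxr2 exons 1, 14 and 15. The 2 copies in Fmr1 lay in its 3′ UTR, the 8 in Cyfip1 were split between 5 in coding sequence and 3 in the 3′ UTR, and none of these was under a peak. Cyfip2 had 4 copies, none under a peak.

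A pair of GGACT copies was found at the same aligned place in both Cyfip genes, in exon 6 and in exon 13, and neither lay in a peak of any replicate. They are shown with 10 nt on each side, as letters that match the consensus without being called methylated in either gene. Absence from the lists says that the caller reported no peak there, and leaves the methylation of the adenosine unmeasured.
Cyfip1 exon 6, A at chr7 position 55874971: agaggagaaaGGACTttgtttctga
Cyfip2 exon 6, A at chr11 position 46280069: agcgcaggaaGGACTttgtctctga
Cyfip1 exon 13, A at chr7 position 55893166: actccaacaaGGACTgccccgacaa
Cyfip2 exon 13, A at chr11 position 46265983: tctgcaacaaGGACTgcccgggcac

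Genes that act with the family mostly had shared peaks too. In the WAVE complex list, 9 of 10 genes had a shared exonic peak, with a median of 1.5 shared intervals, against 45.5% of all protein-coding genes. Wasf2, an actin-nucleation promoter of the complex, had the most with 5 and a strongest Enrichment of 6.34 in replicate 1 and 3.52 in replicate 2, while Rac1, the GTPase that activates it, had no peak. Of 8 genes for proteins that bind FMRP or its paralogs, 7 had a shared peak, with a median of 2.5 intervals. Tdrd3, a Tudor-domain partner, had 4, with a strongest Enrichment of 3.38 and 2.46, and Nufip1 had none shared although it had 3 peaks in replicate 1 and 2 in replicate 2.

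All 5 of 5 textbook target mRNAs of FMRP had a shared peak, against 45.5% of all protein-coding genes. Their median was 7 intervals, against 2 over all genes with a shared peak. Map1b, which encodes a microtubule-associated protein, had 8, with a strongest Enrichment of 5.43 in replicate 1 and 3.09 in replicate 2. The fewest were in Arc, an immediate early gene of synaptic plasticity, with 1 of 4.09 and 2.53. The 5 family genes, with 1 to 3 shared intervals each, lay below the median of this target list and around those of the partner and WAVE lists. These short lists were not tested against all genes, and their counts were not scaled by mRNA length. The share over all protein-coding genes also counts genes of other tissues.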

How the data were processed

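As the labels and methods state, the authors trimmed reads with Cutadapt and Trimmomatic, aligned them to mm10 with TopHat2 (2.0.9 in the submitters' processing notes), kept uniquely mapped reads and called peaks with MACS2 in each IP replicate against its own input, without a fragment model, at a false discovery rate cutoff and with duplicates left in. The deposited values are peak coordinates and an Enrichment, the ratio of IP to input on a linear scale. Keeping duplicates can raise this ratio where few molecules were sampled. The input samples have no processed files here.

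Coordinates were read as 1-based. Peaks were matched to exons and to each other in Python by an overlap of at least 1 bp. The matching was checked against bedtools 2.31.1 on simulated peaks. Positions refer to the transcript with the longest coding sequence. Sequences came from GRCm38.p6 (samtools 1.23.1), and translated coding sequences were aligned with MAFFT 7.526. Scripts ran in Python 3.11.15 with Biopython 1.88 and pandas 2.3.3 and were tested on simulated peaks. Genes were named by being members or on a fixed list, and of the lists the genes with most and fewest shared peaks. Alternatives were an overlap of 50% of both peaks, an Enrichment minimum of 2, joining peaks within 100 bp, a peak midpoint in an exon, the longest transcript, GGAC and each replicate alone. The members and lists were chosen with earlier results of these data known.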

Additional observations from a re-analysis of the deposited data

Results flagged for a closer look

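A peak of Cyfip2 outside the exonic comparison exceeded every exonic peak of the 5 genes. It lay in intron 23 (chr11:46230640-46231356, 717 nt), 6435 nt from the nearest exon, and was found in replicate 1 alone, where its Enrichment was 4.27. It was stronger than 80.9% of the peaks of its replicate, overlapped no other annotated gene, and held 4 GGAC and 0 GGACT on the strand of Cyfip2. It is the only peak within the 5 genes that covered no exonic base.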

How the results depend on the processing

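The shared intervals numbered 10 with an overlap of 50% and with peaks within 100 bp joined, 9 with the peak midpoint in an exon, and 9 with intervals adjacent on the mRNA counted as 1, an alternative chosen after seeing the data. With an Enrichment of at least 2 they fell to 3, 1 each in Fmr1, Fxr2 and Cyfip2, and the shared percentage of replicate 1 was 30.0, while Fxr1 and Cyfip1 had none, so that differences with them could not be given. Leaving out a replicate gave 13 to 18 peaks. The log2 difference between Fmr1 and Fxr2 ranged from -0.00096 without replicate 1, where its direction turned, to 0.29 without replicate 2. With medians over shared peaks it was 0.66, that between Fxr2 and Fxr1 was 0.0052, that between Fmr1 and Fxr1 went from 1.07 to 0.66, and that between Cyfip2 and Cyfip1 went from 0.44 to 0.05. The latter was 0.11 to 0.26 with a replicate left out. GGAC was found in 8 shared intervals and GGACT in 1. The cause of these shifts was not tested beyond the fewer peaks or samples each setting keeps. No difference other than that of Fmr1 and Fxr2 changed direction under these alternatives. No paired analysis was possible between IP and input samples, because the inputs have no processed files here. Differences between genes were taken within each replicate, so their values are paired by replicate. They are given as a mean and SD, and no result comes from a test. Without read counts, the precision of an Enrichment is unknown, and a gene without a peak may have been covered too thinly for the caller.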
